A study of Mus musculus with 24 samples.

Results

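Cardiac bodies, the day 14 cultures that mouse embryonic stem (ES) cells form on the way to heart muscle, were compared with the undifferentiated ES cells they started from. The groups were taken by sample title: 2 cardiac body samples (CB, day 14) and 2 ES cell samples (day 0), 4 of the 12 samples of the series. RNA from each sample was read on Affymetrix mouse gene arrays, at gene level and at exon level, so these 4 samples have 8 of the 24 deposited sets of values. The other 8 samples, 2 of each kind, are embryonic bodies (EB) of day 7 and whole hearts of E17.5, P1 and adult mice. They entered the fit only to estimate the spread between replicates, and their levels are given where they help to place a value. The labels state DMEM medium with 10% serum for the differentiation and give no genetic change, strain, line or sorting step for either group. Nothing in the labels says that the 2 samples of a group came from separate cultures, so p-values measure only the spread between these samples, which may be technical.

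ES cells divide rapidly and keep the option to form any tissue through a network of transcription factors around Oct4 (Pou5f1), Sox2 and Nanog. In culture they can pass through mesoderm to cardiomyocytes, which build sarcomeres, the repeating units of myosin thick filaments and actin thin filaments held at Z-discs and M-bands. Contraction is started by calcium that enters at the surface and is released from and pumped back into the sarcoplasmic reticulum. Cardiac bodies are mixed aggregates of the cell types that differentiation yields, so a gene can be higher because more cells express it or because each cell holds more of its RNA. In such bulk samples these cannot be told apart.

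All values are log2 signals, and a difference of 1 on this scale is a ratio of 2. Median signals per array lay between 5.615 and 5.675 over the 4 gene-level arrays and between 6.404 and 6.500 over the 4 exon-level arrays. The 2 CB arrays correlated at r = 0.990 and the 2 ES arrays at r = 0.993, both across genes, which do not stand for independent replicates. As a guide to low signals, 1228 genes for olfactory, vomeronasal and taste receptors had a median of 3.08 and a 95th percentile of 4.74 on these 4 arrays. A level at or under 4.74 is called near that floor here, and signals were not tested against background. A difference from a level near the floor is given as measured and is a lower bound, so such genes have no exact rank. Among the coding genes named as rising below, this holds for Pln, Ankrd1, Tnni1, Myom1, Slc8a1, Camk2d and Kcnj5. It also holds for Cd36, Ppargc1a, Alb, Timp3, Lama2, Bmp5 and Wnt5a.

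Of 19920 genes tested, 1233 were higher in CB (6.19%) and 719 were lower (3.61%), together 9.8%, at an adjusted p under 0.05 (limma, Benjamini-Hochberg over all genes). The 2 directions differed in size. Among the higher genes, 822 differed by at least 1 on the log2 scale, 256 by at least 2 (4-fold) and 47 by at least 4 (16-fold). Among the lower genes the counts were 315, 22 and 0. The median difference over all genes was -0.046. ES levels were near the floor for 183 of the 1233 higher genes, and CB levels for 56 of the 719 lower ones. Centring each array on its median moved the split to 1017 higher and 1243 lower.

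The 2 cardiac body samples were not equally far from ES cells. The CB array of replicate 1 lay farther from the ES mean than that of replicate 2 in 993 of the 1233 higher genes, with a median difference of 0.29 between the arrays, against 0.055 over all genes. Of the 719 lower genes, replicate 1 was the farther in 450. The count of called genes was 1952 in all, 883 without CB replicate 1, 1410 without CB replicate 2, 1004 without ES replicate 1 and 927 without ES replicate 2. The fits that leave out an array have fewer samples, and calls they lose are named with the results below.

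**Figure D1:**
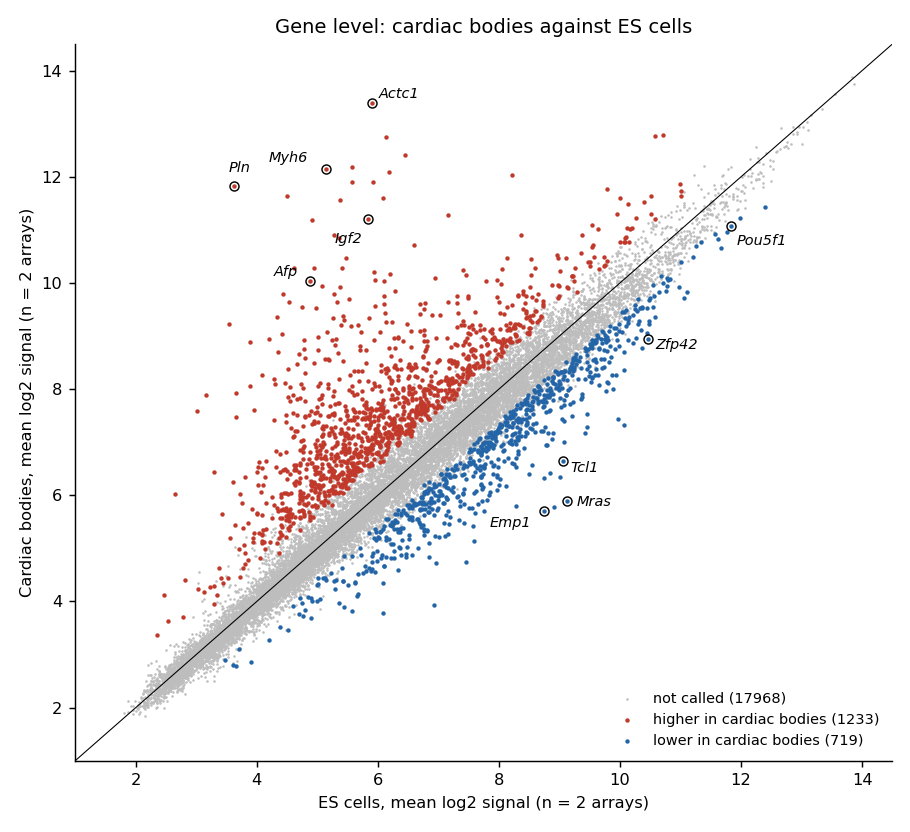
Mean log2 signal of each of the 19920 genes in ES cells (horizontal, n = 2 arrays) and in cardiac bodies (vertical, n = 2 arrays). Red points are the 1233 genes called higher, blue points the 719 called lower and grey points the rest; the line marks equal signal, and ringed genes are named. The genes called higher reach much farther from the line than those called lower.

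The 12 genes with the largest rises all code for muscle proteins or their partners. Pln, which encodes phospholamban, the inhibitor of the sarcoplasmic reticulum calcium pump, was at 3.53 and 3.74 in ES cells and at 12.09 and 11.56 in CB, a rise of 8.19 (SE 0.24, adjusted p = 1.73e-09). Its ES level was near the floor and its CB level was among the highest on the arrays. Actc1, cardiac alpha-actin, went from 5.96 and 5.86 to 13.50 and 13.26, a rise of 7.47 (SE 0.38, adjusted p = 1.33e-07). Ankrd1, a stretch-responsive ankyrin repeat protein of the sarcomere and nucleus, went from 4.64 and 4.36, near the floor, to 11.78 and 11.49, a rise of 7.13. Myh6, the alpha-myosin heavy chain, went from 5.06 and 5.24 to 12.36 and 11.95, a rise of 7.01 (adjusted p = 1.73e-09). The remaining 8 were Tnnc1, Tnnt2, Myl2, Myl3, Myl9, Acta2, Myl4 and Myl7, with rises from 5.90 to 6.61. In each of the 12 genes both CB arrays lay above both ES arrays. The calls of 11 of them held with any of the 4 arrays left out, while that of Myl7 was lost without CB replicate 1 (adjusted p = 0.0825) and without ES replicate 2 (0.0763).

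**Figure D2:**
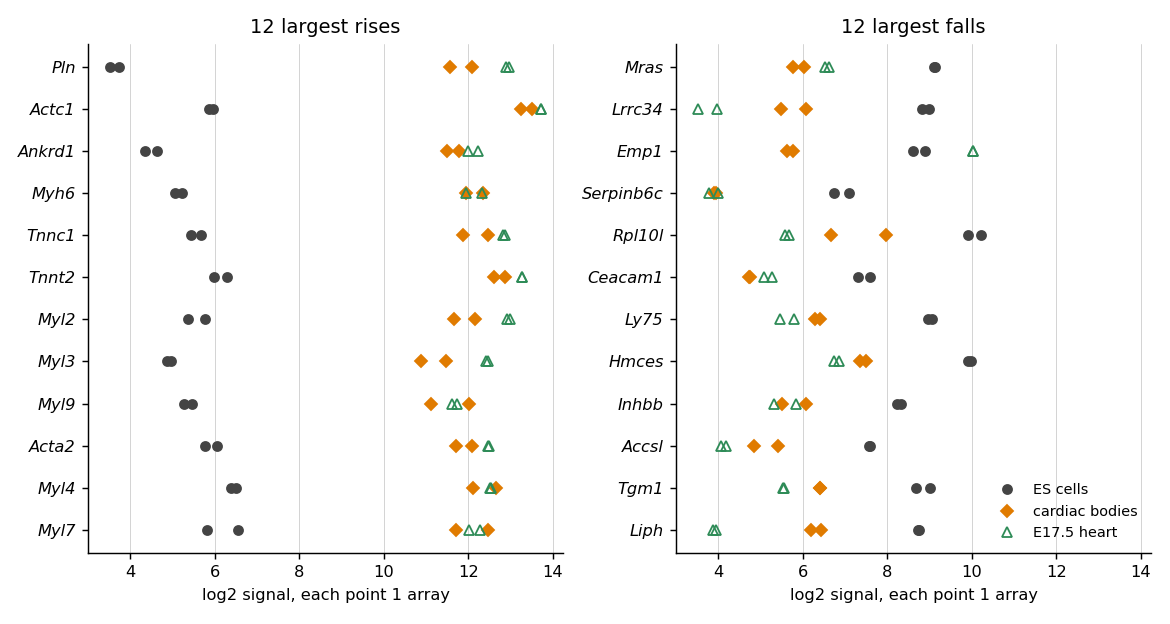
Log2 signal on single arrays for the 12 genes with the largest rises (left) and the 12 with the largest falls (right): filled circles are ES cells, diamonds cardiac bodies and open triangles E17.5 hearts, 2 arrays each. For the rises no CB point overlaps an ES point, and the CB points lie near those of the E17.5 hearts. For the falls no CB point overlaps an ES point, while CB and E17.5 points overlap in some genes, among them Serpinb6c and Inhbb.

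The thick filament, whose myosin motors pull on actin, had 8 of 9 measured genes called higher and none lower, with a median rise of 5.90 against -0.046 over all genes. The ventricular light chain Myl2 was at 5.37 and 5.77 in ES cells and at 12.16 and 11.67 in CB. The atrial light chain Myl7 was at 6.56 and 5.82 in ES cells and at 12.46 and 11.72 in CB, so light chains of both chambers were high in the same cultures. Myl4, the other atrial light chain, rose by 5.94 (SE 1.09, adjusted p = 0.00377). The SE of Myl7 was 1.22, and both errors draw on all 6 groups. The 2 adult hearts read 7.01 and 12.28 for Myl4 and 5.42 and 11.27 for Myl7. Myh7, the beta-myosin heavy chain of fetal ventricle, rose by 4.32 to 9.72 and 9.57, below its E17.5 heart mean of 12.95, while Myh6 stood at a CB mean of 12.15 beside 12.14 at E17.5. Mybpc3, a myosin-binding protein of the A-band, rose by 5.51 (SE 0.22, adjusted p = 2.01e-08).

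The thin filament, made of actin with the troponin and tropomyosin that let calcium switch it on, had 10 of 11 genes called higher and none lower, with a median rise of 4.34. Tnnt2, the troponin subunit that binds tropomyosin, was at 5.99 and 6.29 in ES cells and at 12.87 and 12.61 in CB, a rise of 6.6 (SE 0.19). Tnnc1, the calcium-binding subunit, rose by 6.61. The inhibitory subunit has a slow skeletal isoform, Tnni1, that the fetal heart uses, and a cardiac isoform, Tnni3, that replaces it. Tnni1 was at 4.83 and 4.41 in ES cells and at 10.74 and 9.84 in CB, a rise of 5.67 (SE 0.30, adjusted p = 1.93e-07). Tnni3 was at 5.51 and 5.37 in ES cells and at 9.75 and 8.86 in CB, a rise of 3.87 (SE 0.27, adjusted p = 2.13e-06). Both isoforms were thus above both ES arrays, as they are in the E17.5 heart, where the means were 11.67 and 10.90. Acta1, skeletal alpha-actin, was the thin filament gene not called, with a difference of 0.64 (adjusted p = 0.452).

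Z-disc, M-band and titin genes, which anchor both filaments, had 17 of 19 called higher and none lower, with a median rise of 3.45. Actn2, the alpha-actinin that crosslinks actin at the Z-disc, rose by 5.62 (SE 0.18, adjusted p = 1.98e-09). Myom1, which crosslinks myosin at the M-band, went from 4.49 and 4.38 to 10.03 and 9.55. Csrp3, a LIM protein of the Z-disc, went from 5.26 and 4.64 to 10.77 and 9.80. Myom3 and Xirp2 were not called, each with a difference of -0.24. Over these 3 lists 35 of 39 genes were called higher, against 6.19% of all genes, and no call came in the other direction. The number called changed by at most 2 genes in each list with any of the 4 arrays left out.

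Promoters of the sarcomere genes called higher are shown because these genes moved together. The 250 bases upstream of the start in RefSeq (GRCm38.p6) were searched on both strands for motifs of muscle regulators. Of the 35 genes 29 had a promoter in the RefSeq table, and these had 40 promoters. The CArG box, the binding motif of serum response factor, was in 7 of the 40 and in 482 of all 32851 promoters (1.47%). The MEF2 motif was in 5 against 1.69% of all promoters. The other motifs were CATTCC, in 10 of the 40 against 12.6%, AGATAA or TGATAA, the GATA motif, in 10 against 16.6%, TATAAA, in 4 against 12.4%, and ATGCAAAT, the Oct4 octamer, in none against 1.6%. A stretch that matched several motifs was counted for each. These shares are descriptions without a test, and a match does not show that a factor binds. Below are the 120 bases upstream of the start of 4 genes with a single listed start and a CArG box in this stretch, which is in capitals, 5′ to 3′ on the gene's strand. The boxes begin 47 bases before the start in Actc1 (chr2:114052876-114052995, minus strand), 85 in Myl3 (chr9:110763558-110763677, plus strand), 61 in Myl7 (chr11:5898783-5898902, minus strand) and 99 in Myom1 (chr17:71019437-71019556, plus strand).
Actc1: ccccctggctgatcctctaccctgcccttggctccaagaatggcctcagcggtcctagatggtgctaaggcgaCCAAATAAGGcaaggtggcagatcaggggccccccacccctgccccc
Myl3: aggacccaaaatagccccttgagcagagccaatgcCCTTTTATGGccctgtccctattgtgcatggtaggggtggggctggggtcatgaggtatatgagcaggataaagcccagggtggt
Myl7: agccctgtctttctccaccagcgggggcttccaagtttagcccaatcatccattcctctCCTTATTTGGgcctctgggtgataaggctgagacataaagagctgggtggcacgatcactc
Myom1: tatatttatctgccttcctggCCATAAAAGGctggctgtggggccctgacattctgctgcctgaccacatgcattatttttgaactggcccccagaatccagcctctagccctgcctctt

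Calcium cycling genes had 15 of 22 called higher and none lower, with a median rise of 1.70. Slc8a1, the sodium-calcium exchanger of the surface membrane, went from 4.44 and 4.21 to 9.71 and 9.02, a rise of 5.04 (SE 0.30, adjusted p = 4.60e-07). Ryr2, the release channel of the sarcoplasmic reticulum, went from 5.53 and 5.81 to 9.54 and 8.86, a rise of 3.53. Camk2d, a calcium-dependent kinase, rose by 3.89. Sln, which encodes the atrial pump inhibitor sarcolipin, was at 4.48 and 5.05 in ES cells and 5.84 and 4.94 in CB and was not called (adjusted p = 0.759).

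Ion channel and junction genes were called in 5 of 21 cases, all higher, with a median difference of 0.45. Popdc2 and Bves, cyclic AMP-binding membrane proteins of heart muscle, rose by 5.48 and 3.68. Kcnj5, a subunit of the acetylcholine-gated potassium channel, rose by 3.80. Hcn4, the pacemaker channel, was at 5.52 and 5.32 in ES cells and at 7.62 and 6.15 in CB, so the rise of 1.46 rested mainly on CB replicate 1. Its call (adjusted p = 0.0157) was lost without CB replicate 1 (0.0929), ES replicate 1 (0.0717) and ES replicate 2 (0.123). The count of the list fell to 3 without CB replicate 1 and without ES replicate 1, and was 5 in the other 2 fits.

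Transcription factors of the heart were called in 15 of 27 cases, all higher, with a median rise of 1.09. Tbx20, a T-box factor of the chambers, had the largest rise, from 4.57 and 4.92 to 10.10 and 8.98 (4.79, SE 0.58, adjusted p = 0.000180). Gata6, which also acts in endoderm, rose by 3.64, and Mef2a by 2.84. Myocd, the co-activator of serum response factor, rose by 2.67. Gata4 was at 8.15 and 7.86 in CB after 6.03 and 5.77 in ES cells, a rise of 2.10 (adjusted p = 0.00119). Tbx5 was at 7.73 and 6.38 after 5.17 and 4.81, a rise of 2.06. Nkx2-5 was at 8.89 and 8.22 after 7.14 and 7.19, a rise of 1.39, with its call lost without CB replicate 1 (adjusted p = 0.0513). Isl1, a factor of cardiac progenitors, was at 6.13 and 6.14 after 4.83 and 5.10. Its call (adjusted p = 0.0147) was lost with any of the 4 arrays left out (up to 0.135). The list's count was 10, 12, 12 and 11 without CB replicate 1, CB replicate 2, ES replicate 1 and ES replicate 2.

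Hormone and stretch-response genes had 5 of 10 called higher and none lower. Nppa, which encodes atrial natriuretic peptide, went from 5.05 and 4.98 to 8.56 and 8.92, a rise of 3.72 (SE 0.58, adjusted p = 0.00130), and stood well under its E17.5 mean of 12.75. Corin and Furin, enzymes that process natriuretic peptides, rose by 1.99 and 2.17. Nppb, the related B-type peptide, was at 4.73 and 3.80 in ES cells and at 5.36 and 5.95 in CB and was not called (adjusted p = 0.199), though it was in the fit with only the CB and ES arrays (0.0104).

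Smooth muscle genes had 7 of 14 called higher and none lower, with a median of 0.70. Myl9, the smooth muscle light chain, went from 5.46 and 5.28 to 12.02 and 11.13, a rise of 6.20, and Acta2, smooth muscle actin, from 6.06 and 5.78 to 12.10 and 11.72, a rise of 5.99. Both genes are also active in immature cardiomyocytes. Cnn1 rose by 2.11 and Tagln by 1.88. Myh11, the defining heavy chain of mature smooth muscle, differed by 0.00 (adjusted p = 0.999). The list's count fell to 4 without CB replicate 1 and without ES replicate 2 and to 5 in the other 2 fits. The call of Tagln was among those lost without CB replicate 1 (adjusted p = 0.0796) and without ES replicate 2 (0.0646).

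Enzymes of fatty acid oxidation, the main fuel route of the mature heart, had 16 of 27 called higher and none lower, with a median rise of 0.86. Cd36, the fatty acid transporter, went from 3.20 and 3.14, near the floor, to 8.40 and 7.37, a rise of 4.71 (SE 0.50, adjusted p = 6.81e-05). Lpl, which frees fatty acids from lipoproteins, rose by 3.36, Acadl, a long-chain dehydrogenase, by 2.69, and Ppargc1a, a co-activator of mitochondrial genes, by 2.48. The count was 10 without CB replicate 1, 15 without CB replicate 2, 13 without ES replicate 1 and 11 without ES replicate 2. Citrate cycle and respiratory chain genes had 7 of 28 called higher and none lower, although the difference was above 0 in each of the 28 (0.09 to 3.80). Cox8b and Cox6a2, the heart and muscle isoforms of cytochrome oxidase subunits, rose most, by 3.80 and 3.12. The count of 7 moved to 3, 8, 3 and 4 when CB replicate 1, CB replicate 2, ES replicate 1 and ES replicate 2 were left out, and reached 12 with an intensity trend.

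Glycolysis genes moved in both directions, with 6 of 22 called higher and 3 lower and a median of -0.19. The higher genes included the muscle isoforms Pgam2 (4.1) and Eno3 (2.25) and the insulin-regulated glucose transporter Slc2a4 (2.48). The lower genes were Hk2, Aldoc and Pfkp, from -1.23 to -1.25. Without ES replicate 1, 1 gene was called lower. Mb, the oxygen store myoglobin, went from 6.93 and 6.27 to 10.94 and 10.47, a rise of 4.11 (adjusted p = 3.77e-07). The muscle creatine kinase Ckm rose by 1.72, and the ubiquitous mitochondrial isoform Ckmt1 fell by 1.37, from 7.22 and 7.60 to 6.02 and 6.06.

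**Figure D3:**
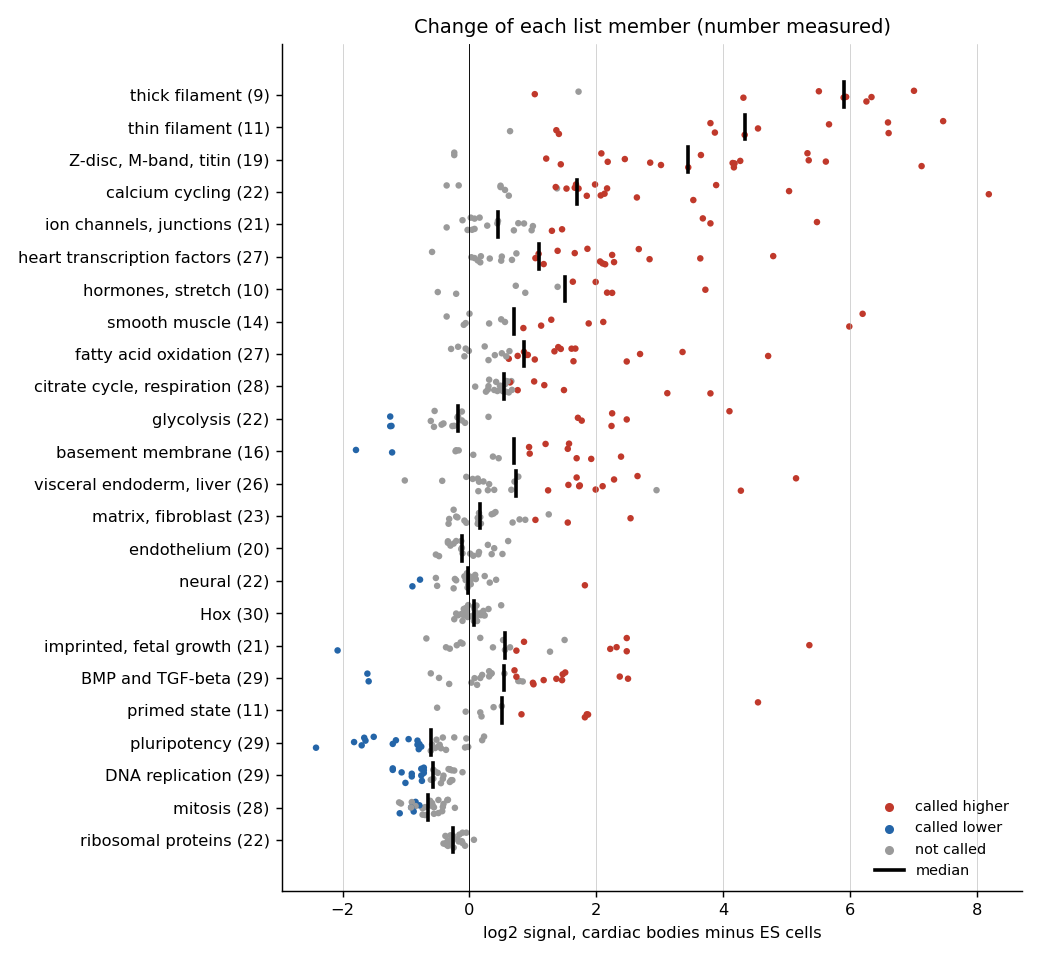
Difference of log2 signal, cardiac bodies minus ES cells, for each measured member of 24 gene lists; each point is 1 gene, red called higher, blue called lower and grey not called, and the bar is the list median. Medians run from 5.90 for the thick filament to -0.66 for mitosis. Hox and endothelial genes lie around 0 with no call.

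Genes of other tissues were read to see what else the cultures held. Visceral endoderm and liver genes had 11 of 26 called higher and none lower, with a median of 0.74. Afp, the fetal serum protein of yolk sac and liver, was at 5.10 and 4.65 in ES cells and at 10.08 and 9.97 in CB, a rise of 5.15 (SE 0.24, adjusted p = 6.53e-08). It was between 4.44 and 5.08 in the means of EB and of the 3 heart groups, so only the CB arrays were high. Alb, serum albumin, went from 3.59 and 3.72 to 7.94 and 7.92, a rise of 4.28, and Fgb, a fibrinogen chain, rose by 2.65. Hnf4a and Foxa2, defining factors of this lineage, differed by 0.13 and 0.14 and were not called. CB replicate 1 minus CB replicate 2 had a median of 0.08 over the list. In 3 genes replicate 2 was higher by at least 1: Dab2 (6.27 and 7.29 on replicates 1 and 2), Cubn (5.56 and 6.87) and Lrp2 (7.26 and 8.27), all proteins of endocytic uptake. The count fell to 7 without ES replicate 2 and to 9 and 8 without CB replicate 2 and ES replicate 1, and stayed 11 without CB replicate 1. The part that endoderm cells have in other results was not tested.

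Endothelial genes had 0 of 20 called in either direction (limma), and 0 under each alternative run, with differences from -0.53 to 0.61. Pecam1, an adhesion molecule that ES cells also carry, was at 7.91 and 7.90 in ES cells and at 7.53 and 8.30 in CB. Matrix and fibroblast genes had 3 of 23 called higher, Timp3, Sparc and Mmp2, with rises of 2.54, 1.55 and 1.04, and a median of 0.17. The call of Sparc was lost with the median of exon-level probe sets (adjusted p = 0.098). The call of Mmp2 (adjusted p = 0.0178) was lost without CB replicate 2 (0.173), ES replicate 1 (0.108) and ES replicate 2 (0.104). Col1a1, the main fibrillar collagen chain, was at 6.6 and 6.51 in ES cells and at 6.59 and 6.36 in CB, against an E17.5 mean of 11.28. In blood, epicardial, epithelial, neural, skeletal muscle and fat cell lists, calls were 1 of 16, 1 of 9, 3 of 18, 3 of 22, 2 of 18 and 0 of 9, against 9.8% of all genes. Most of these calls moved with the processing. The epicardial call, Msln, was lost with any of the 4 arrays left out, and the blood call, Cd68, without CB replicate 1 and without ES replicate 2. Of the epithelial calls, the falls of Spint1 and Spint2, both protease inhibitors, numbered 2 and became 0 in 3 of those 4 fits, but falls numbered 6 with median centring and 7 with only the CB and ES arrays, so the share of this list depends on the setting. The rise of Krt18, a keratin, was lost in 3 of the 4 fits. The neural falls, Stmn2 and Elavl3, became 0 in 3 of the 4 fits, and the rise of Otx2 was lost in 3. The defining genes Hbb-y, Krt8, Sox1 and Myod1 were not called (adjusted p from 0.604 to 0.989). Hox genes, which mark position along the trunk, had 0 of 30 called with differences from -0.24 to 0.50, and 10 of them were near the floor in CB. Primitive streak and mesoderm genes had 0 of 19 called.

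Basement membrane genes moved in both directions, with 8 of 16 called higher and 2 lower. Lama2, the laminin chain of muscle basement membrane, went from 4.38 and 4.40 to 7.52 and 6.04, a rise of 2.39 (adjusted p = 0.00362). Lama1, the chain of the early embryo, went the other way, from 7.80 and 7.91 to 5.64 and 6.49, a fall of -1.79 (adjusted p = 0.000672). The collagen chains Col4a2 and Col4a5 rose by 1.92 and 1.69. The count of higher genes was 5 without CB replicate 1, without ES replicate 1 and without ES replicate 2, and 7 without CB replicate 2.

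The list of fetal growth genes, many of them imprinted and so expressed from a single parental copy, had 7 of 21 called higher and 1 lower. Igf2, the insulin-like growth factor of the fetus, was at 5.79 and 5.88 in ES cells and at 11.30 and 11.09 in CB, a rise of 5.36 (SE 0.41, adjusted p = 3.93e-06). It was already at a mean of 11.74 in EB. Ndn and Plagl1 rose by 2.48 each, and Igf2r, the receptor that clears Igf2, by 2.32. The lower gene was Phlda2, a placental growth regulator, at -2.08, whose call was lost with any of the 4 arrays left out.

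Among BMP and TGF-beta genes 11 of 29 were called higher and 2 lower. The ligand Bmp5 rose by 2.50 and the decoy receptor Bambi by 2.37. The ligand Bmp4 fell from 9.53 and 9.79 to 8.06 and 8.07 (-1.59), a call lost with any of the 4 arrays left out (adjusted p up to 0.152), and Id1, a target that BMP induces, fell by 1.61 (adjusted p = 0.00110). The count of higher genes was 3, 7, 5 and 5 without CB replicate 1, CB replicate 2, ES replicate 1 and ES replicate 2. Among FGF genes, the ligand Fgf17 fell from 7.69 and 7.81 to 5.72 and 5.70 (-2.04, adjusted p = 1.38e-05), and Fgf5, a mark of the primed, post-implantation state, rose by 1.85 (adjusted p = 6.57e-05). Of that primed state 5 of 11 genes were called higher, among them Cdh2, N-cadherin, which heart muscle also uses, with a rise of 4.55. This count was 3 without CB replicate 1, ES replicate 1 or ES replicate 2.

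Pluripotency genes had 14 of 29 called lower and none higher, with a median of -0.61. The CB levels of all 14 stayed above 4.74. Tcl1, a co-activator of Akt kinase, had the largest fall, from 8.89 and 9.23 to 6.56 and 6.72 (-2.42, SE 0.31, adjusted p = 0.000283). Zfp42, known as Rex1 and a mark of naive ES cells, fell from 10.31 and 10.61 to 8.95 and 8.95 (-1.51, adjusted p = 0.000435). The core factors changed less. Pou5f1 was at 11.83 and 11.83 in ES cells and at 11.03 and 11.11 in CB, a fall of -0.76 (SE 0.20, adjusted p = 0.0310). Nanog was at 11.73 and 11.80 in ES cells and at 10.90 and 11.03 in CB, a fall of -0.80 (SE 0.17, adjusted p = 0.00947). Sox2 was at 10.33 and 10.42 in ES cells and at 9.51 and 10.34 in CB, and was not called (-0.45, adjusted p = 0.606).

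On the linear scale the CB signal of Pou5f1 was 58.9% of the ES signal, and over the 29 genes the median was 65.4%. It was 18.7% for Tcl1, 28.3% for Prdm14 and 35% for Zfp42, and 95.2%, 96.7% and 98.6% for Dppa5a, Dnmt3l and Fbxo15, which were not called. In 27 of the 29 genes both CB arrays lay above all 6 heart arrays, the exceptions being Klf4 and Dppa3, and in 24 of 29 they lay above both EB arrays. Pou5f1 stood at a mean of 11.07 in CB, 8.49 in EB and 4.60 in E17.5 hearts. The day 14 cultures thus held more pluripotency signal than the day 7 ones while heart muscle genes were high on the same arrays. How much of it comes from undifferentiated cells in the CB samples was not tested.

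The count of 14 called lower moved with each array, to 6 without CB replicate 1, 9 without CB replicate 2, 8 without ES replicate 1 and 6 without ES replicate 2, and was 8 with the median of exon-level probe sets as the gene value. The calls of Pou5f1 and Esrrb were lost with any of the 4 arrays left out (adjusted p up to 0.189 and 0.140), and that of Nanog without CB replicate 1, ES replicate 1 or ES replicate 2 (up to 0.0961). Those of Tcl1, Prdm14, Klf5, Klf4 and Zfp42 held in the 4 fits. With the median of exon-level probe sets the calls of Zfp42 (0.0568), Pou5f1 (0.155) and Nanog (0.215) were among those lost. The difference of CB replicate 1 minus CB replicate 2 had a median of -0.30 over the 29 genes and of 0.55 over the thick filament genes, so the array with less muscle signal had more pluripotency signal.

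**Figure D4:**
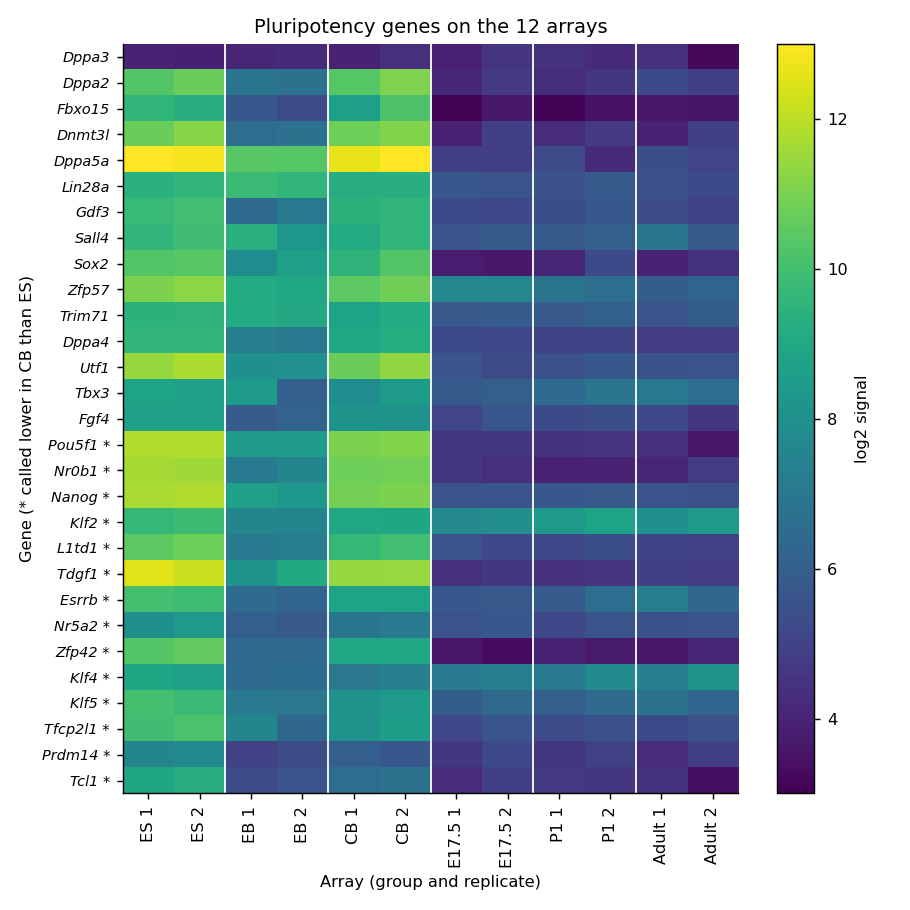
Log2 signal (colour) of 29 pluripotency genes on each of the 12 arrays, ordered by the difference between cardiac bodies (CB) and ES cells; an asterisk marks the 14 genes called lower. The CB columns stay close to the ES columns for most genes and above the EB and heart columns, with Klf4 and Dppa3 as the exceptions against the hearts.

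The 12 largest falls lay outside the pluripotency list, though Tcl1 of that list, at -2.42, was close to the last of them. Mras, a Ras-related GTPase, was at 9.12 and 9.14 in ES cells and at 5.77 and 6.03 in CB, a fall of -3.23 (SE 0.20, adjusted p = 6.26e-07). Lrrc34, a leucine-rich repeat protein, fell from 8.82 and 8.99 to 5.48 and 6.09 (-3.12). Emp1, an epithelial membrane protein, fell from 8.61 and 8.90 to 5.77 and 5.62 (-3.05), while E17.5 hearts were at 10.02. Serpinb6c, a serine protease inhibitor, fell from 7.10 and 6.74 to 3.91 and 3.96 (-2.99), which is near the floor. Rpl10l, a retrogene copy of a ribosomal protein gene, fell by 2.74, with CB arrays at 6.67 and 7.97. The other 7 were Ceacam1, an adhesion receptor, Ly75, an endocytic receptor, Hmces, a DNA repair protein, Inhbb, an activin subunit, Accsl, the lipase Liph and the crosslinking enzyme Tgm1, from -2.70 to -2.43. The calls of all 12 held with any of the 4 arrays left out. In 11 of them, Emp1 being the exception, the E17.5 mean was also below both ES arrays.

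Cell cycle genes were called lower in part. DNA replication genes had 12 of 29 called lower and none higher, with a median of -0.57 and differences from -1.21 to -0.11, so each of the 29 was below 0. Ccne1, cyclin E1, fell from 10.36 and 10.79 to 9.32 and 9.40 (-1.21, adjusted p = 0.00169). The count was 2, 7, 3 and 3 without CB replicate 1, CB replicate 2, ES replicate 1 and ES replicate 2. Mitosis genes had 5 of 28 called lower and none higher, with a median of -0.66 and differences from -1.11 to -0.23. Birc5, survivin, fell from 9.02 and 8.88 to 7.96 and 8.11 (-0.92, adjusted p = 0.00261), a call lost with the median of exon-level probe sets (0.132). Mki67 was at 9.0 and 8.82 in ES cells and at 8.17 and 7.84 in CB and was not called (-0.91, adjusted p = 0.0904). The mitosis count was 2, 3, 2 and 2 in the same 4 fits and 17 in the fit with only the CB and ES arrays. D cyclins, inhibitors of cyclin-dependent kinases and related growth regulators had 2 of 18 called higher and 1 lower, with a median of 0.27. Ccnd2, cyclin D2, went from 7.02 and 7.58 to 8.56 and 8.46 (1.21, adjusted p = 0.0149), and Btg2, an antiproliferative factor, rose by 0.92. Mycn, a growth-promoting factor, fell by 0.74. The calls of Btg2 and Mycn were lost with any of the 4 arrays left out (adjusted p up to 0.0775 and 0.149), and that of Ccnd2 in 3 of the 4 fits (up to 0.174). Ribosomal protein genes, for comparison, had 0 of 22 called with a median of -0.26, and 10 reference genes had 0 called with a median of -0.07.

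MicroRNA rows were read as well. They were picked after the values were seen, and a row measures RNA over the locus, not the mature product. Of 287 such rows 9 were called higher and 2 lower (3.83%, against 9.8% of all genes), with a median of -0.03. Mature sequences from RefSeq (GRCm38.p6) were found for 10 of the 11, and 8 arms are given with the seed, bases 2 to 8, in capitals, to show which arms are alike. No 2 of these seeds are identical. The entry for miR-302c-3p starts 1 base later than that for miR-302d-3p, so its bases 2 to 8 are shifted. Within the seeds, the arms of miR-302d-3p and miR-302c-3p share AGUGCU, and those of miR-302d-3p and miR-106a-5p share AAGUGC.
miR-302d-3p: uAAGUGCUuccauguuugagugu
miR-302c-3p: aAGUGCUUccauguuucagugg
miR-106a-5p: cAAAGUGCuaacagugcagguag
miR-19b-3p: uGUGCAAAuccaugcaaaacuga
miR-363-3p: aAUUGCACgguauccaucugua
miR-208a-3p: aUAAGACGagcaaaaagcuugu
miR-34a-5p: uGGCAGUGucuuagcugguugu
miR-182-5p: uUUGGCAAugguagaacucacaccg

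Mir208a, which lies in an intron of Myh6, was at 4.04 and 3.99 in ES cells and at 6.41 and 5.99 in CB, a rise of 2.18 (SE 0.44, adjusted p = 0.00716). Also 3 rows of the X-chromosome cluster rose, Mir363 by 1.96, Mir106a by 1.81 and Mir19b-2 by 1.1, and their arms lie between chrX:52741697 and chrX:52742563. Mir302c, Mir302a and Mir302d of the ES-cell cluster on chromosome 3 rose by 1.66, 1.00 and 0.91, with CB means of 4.12, 3.36 and 3.70, all near the floor. Mir145a, known from smooth muscle, rose by 1.62, from 4.07 and 3.47 to 5.58 and 5.20, and Mir34a by 0.77. Mir182 fell by 0.92 and Mir3068 by 0.69. The rises of Mir208a and Mir145a started from ES levels near the floor and are lower bounds. With most levels near the floor, these rows carry less weight than the coding genes.

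Exon-level arrays were used to look for exons that moved apart from their gene. The splicing index subtracts the gene's log2 signal from the probe set's within each sample. Calls needed both a change of 1 or more and an adjusted p under 0.05. Of 92222 probe sets in 8045 genes, 202 in 88 genes were called (0.219%), 137 with a higher index in CB and 65 with a lower one. Of these, 155 lay in genes whose own level changed by at least 1. Titin, Ttn, the molecular spring of the sarcomere, held 46 of the 202 among its 309 tested probe sets, 34 higher and 12 lower. Genes with known alternative exons in heart had 17 of 43 called, through 83 of 1255 probe sets (6.61%). Ttn is among these genes and gave 46 of the 83 and 309 of the 1255. That list was chosen with these samples known, so its share is no independent evidence.

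As a guide to low signals at exon level, 567 probe sets of 221 chemosensory receptor genes had a 95th percentile of 5.55 on these 4 arrays. Of the 137 higher indices, 94 had an ES mean at or under it. There the probe set's own change is a lower bound, and the index change has no exact rank. Probe sets of genes whose value changed by less than 1 are described first. There were 47 in 28 genes, 43 of them higher, and 31 in 27 genes without Myo18b, whose value did not stand for the whole gene. Among those named below, the ES mean was near this exon-level floor for Capzb, Ncam1, Vgll4, Lrrfip2, Col3a1, Ttn, Ank3, Ppp1r14c and Palld. In Capzb, which codes for a subunit of the protein that caps actin filaments and has muscle and non-muscle isoforms, the gene was at 9.74 in ES cells and 9.96 in CB. Its probe set 10509631 was at 4.72 and 5.55 in ES cells and at 10.26 and 9.14 in CB, an index change of 4.35 (SE 0.39, adjusted p = 0.00497). The same probe set was at 5.64 in EB and 10.41 at E17.5. In Ncam1, a cell adhesion molecule, probe set 10593296 was at 5.61 and 4.72 in ES cells and at 9.42 and 8.86 in CB, an index change of 3.22 (adjusted p = 0.00210). In Mov10l1, a helicase gene with a heart isoform known as Champ, probe set 10426143 was at 6.92 and 6.79 and then at 10.04 and 9.35, while the gene was at 6.44 and 6.14 (index change 3.15, adjusted p = 0.00892). Vgll4, a TEAD co-factor, had an index change of 3.13, with the probe set also at 9.95 in EB. The others named by the rule were Lrrfip2 (3.69), Col3a1 (3.17) and Stat2 (2.67).

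Myo18b, an unconventional myosin of striated muscle, held 16 of the 47. Its value came from 1 of 20 transcript clusters, which changed by 0.24, while the other clusters changed by 0.50 to 3.72 with a median of 2.34. With the median of its probe sets as the gene level, 3 Myo18b probe sets were called in all, and their overlap with the 16 was not counted. The median change over its probe sets was 2.36, close to that of the other clusters.

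In genes that rose, a lower index marks probe sets that did not follow. Whether a probe set that is bright in ES cells, where its gene is low, reads that gene's RNA was not tested. Probe set 10350175 of Tnnt2 was at 11.09 and 11.74 in ES cells, where the gene was at 6.14, and at 12.70 and 12.38 in CB, where the gene was at 12.74, an index change of -5.47 (SE 0.45, adjusted p = 0.00328). Mybpc3 had such a probe set at -4.39 and Tpm1, a tropomyosin with many isoforms, at -3.94, the latter at 9.26 and 8.94 in ES cells and 8.87 and 9.06 in CB while the gene rose by 3.80. Higher indices in changed genes included those of Ttn (5.25), Ank3 (5.01), the ankyrin of membrane domains, and Ppp1r14c (4.89), a phosphatase inhibitor. The ES means of these probe sets, 2.13, 2.23 and 2.6, lay near the floor, so their index changes have no exact rank. In Palld, an actin-bundling protein, probe set 10578856 went from 4.34 and 3.01 to 10.52 and 9.35 (3.52, adjusted p = 0.0104).

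These exon calls depend on the arrays more than the gene calls do. The count of 202 was 22 without CB replicate 1, 116 without CB replicate 2, 102 without ES replicate 1 and 43 without ES replicate 2. With only the CB and ES arrays none was called, with a smallest adjusted p of 0.0726 and 6576 probe sets at an unadjusted p under 0.05. Probe sets 10594673 of Tpm1, 10480253 of Hacd1 and 10416059 of Clu changed by -0.13, -0.04 and 0.28. Their genes rose by 3.8, 2.84 and 4.1, so the indices (-3.94, -2.88 and -3.83) mainly give the rise of the gene. Probe set 10416060 of Clu rose by 1.46 (index -2.64), and 10593296 of Ncam1 by 3.98 while its gene changed by 0.76. Only the calls of these probe sets held in every fit that left out an array. Those of 10367699 of Ppp1r14c and 10473822 of Mybpc3 held in each such fit that tested them, but not every fit did. Of the named probe sets, those of Lrrfip2, Col3a1, Stat2 and Ank3 were lost in each such fit that tested them (adjusted p up to 0.283). Those of Capzb, Vgll4, Tnnt2 and Ttn were lost without CB replicate 1 (0.0549, 0.0531, 0.0531 and 0.0947) and held in the other such fits that tested them. The Mov10l1 and Palld probe sets were lost without CB replicate 1 (0.0988 and 0.135) and without ES replicate 2 (0.0912 and 0.107), and that of Mov10l1 also without ES replicate 1 (0.0526).

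**Figure D5:**
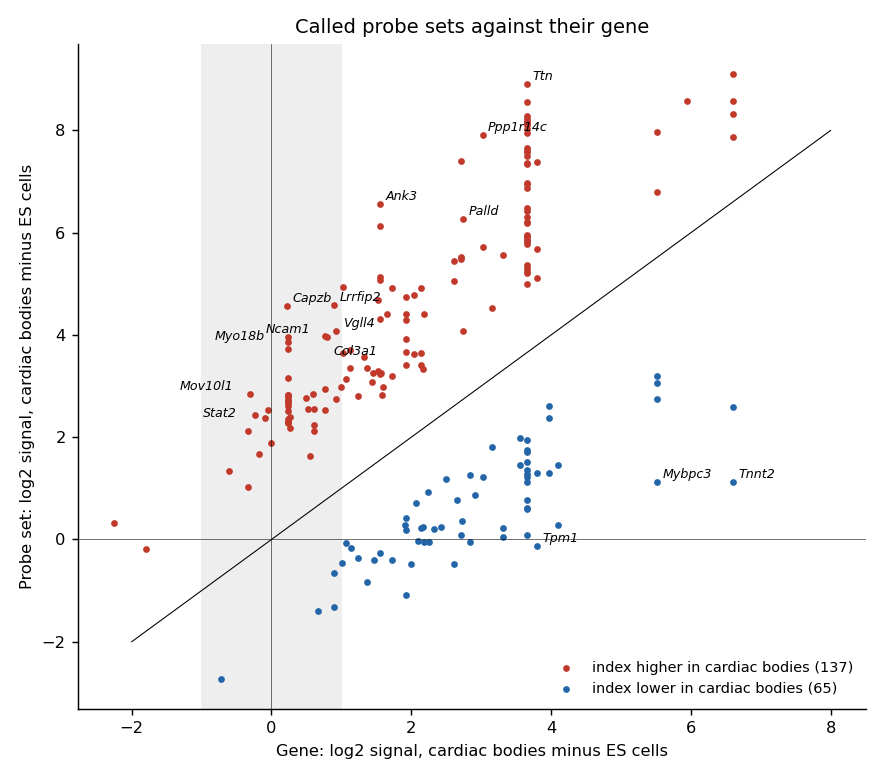
For each of the 202 called probe sets, the log2 difference of its gene (horizontal) and of the probe set itself (vertical), cardiac bodies minus ES cells; red marks the 137 with a higher and blue the 65 with a lower splicing index, the line marks equal change and the grey band genes that changed by less than 1. The column of points at 3.65 is Ttn, and points near the horizontal axis are probe sets that stayed level while the gene rose.

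Splicing regulators were read beside these exons. Of 29 measured, 5 were called higher and none lower, with a median of -0.03. Rbm24 and Rbm20, both regulators of heart muscle exons, rose most. Rbm24 was at 6.04 and 6.21 in ES cells and at 9.88 and 8.98 in CB, a rise of 3.31 (SE 0.33, adjusted p = 4.30e-05), and Rbm20 was at 5.70 and 5.68 and then at 8.45 and 7.88, a rise of 2.47 (SE 0.21, adjusted p = 1.05e-05). Celf2 and Rbpms rose by 1.5 and 1.15. The count was 2, 4, 3 and 2 without CB replicate 1, CB replicate 2, ES replicate 1 and ES replicate 2. The calls of Celf2 (adjusted p up to 0.124) and Rbpms (up to 0.181) were among those lost without CB replicate 1 and without ES replicate 2.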

How the data were processed

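RNA of 12 samples was hybridised to Affymetrix mouse gene arrays, and each sample was deposited at gene level (35556 transcript clusters) and at exon level (241576 probe sets). The authors' deposited values are log2 signals made with RMA in Affymetrix Power Tools, per the submitters' processing notes, with versions and build not given in the sources used here. They were used without further normalization. Transcript clusters with 1 gene symbol in the platform annotation were kept (21789), taking the brightest cluster of a gene, which gave 19920 genes.

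Gene values were fitted with limma 3.58.1 (lmFit and eBayes, R 4.3.3) over all 12 arrays with 6 group means, for the contrast of cardiac bodies minus ES cells, with calls at 0.05 after Benjamini-Hochberg adjustment. The splicing index was fitted likewise in genes with at least 4 probe sets, with the gene at or above the median (6.06) in both groups and the probe set at or above 6.63 in at least 1. The scripts were tested on simulated data with known changes. Only 2 arrays a group limit the precision.

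The members and 43 gene lists were chosen with earlier results of these data known. Of 935 list entries 866 were measured, and T, H19, Cdkn1a and Cpt1b were not analysed here. The text names the 12 largest rises and falls among called genes with non-overlapping groups, up to 4 called members of each list, a fixed set of genes, and probe sets by a like rule. Acta1, Myom3, Xirp2, Hk2, Aldoc, Pfkp, Phlda2, Dab2, Cubn, Lrp2, Hacd1, Clu and the microRNA genes were named after their values were seen. Replicate numbers do not pair the samples: their deviations correlated across genes at 0.17 between ES cells and cardiac bodies and from -0.18 to 0.29 over 15 pairs of groups. Figures were drawn with Python 3.11.15 and matplotlib 3.10.9.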

Additional observations from a re-analysis of the deposited data

How the results depend on the processing

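The 1952 gene calls became 3026 with only the 4 ES and cardiac body arrays, 1837 with the replicate number as a replicate block, 1983 after quantile normalization, 2260 after median centring, 1760 among genes at or above the median level, 1911 with an intensity trend, 1943 with the mean of a gene's clusters and 1348 with the median of its probe sets. Leaving out 1 array gave 883 to 1410. Median centring shifted the median difference of all genes, and with it the split of calls given in the report. The 202 exon calls became 0 with the 4 arrays alone, 121 with the replicate block, 662 with no filter on levels, 186 after quantile normalization, 163 against the median of the gene's probe sets, 372 with diffSplice and, in an alternative added after seeing the data, 170 in genes with 1 transcript cluster. Leaving out 1 array gave 22 to 116. Of 148 called genes among the 161 named or fixed ones, 92 were called under every alternative that tested them and 56 were lost under at least 1. None of the 161 was called with opposite signs. List medians close to 0 changed sign between scalings, among them those for skeletal muscle, mesoderm, Nodal and Hox genes.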

Other observations

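Several gene groups not described above also had calls. Ifitm3, Ifitm1 and Ifitm2, small membrane proteins that interferon induces and that early embryonic cells express, fell by 1.65, 1.6 and 1.2. Ifitm3 was at 9.69 and 9.87 in ES cells and at 8.09 and 8.17 in cardiac bodies (limma adjusted p = 0.00422). B2m, the invariant chain of MHC class I, rose from 7.77 and 7.32 to 8.46 and 8.96 (1.16, adjusted p = 0.0135), and its call was lost without CB replicate 2 (0.126) and without ES replicate 2 (0.153). The calls of Ifitm1 and Ifitm2 were lost in 3 and 4 of the fits that left out an array (adjusted p up to 0.105 and 0.0812).

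Wnt pathway genes had 5 of 33 called higher and 2 lower. Fzd5, a Wnt receptor, fell from 8.64 and 8.83 to 7.09 and 7.36 (-1.51, adjusted p = 0.000713), which held in the 4 fits. Wnt5a rose by 1.80, from an ES level near the floor, and Rspo3 by 1.49, with calls lost without CB replicate 1, ES replicate 1 and ES replicate 2 (adjusted p up to 0.121 and 0.212). The count of 5 was 0 in each of those 3 fits and 3 without CB replicate 2. Nodal pathway genes had 1 of 13 called, Tdgf1, lower. Its call was lost with any of the 4 arrays left out, and Lefty1 was not called (0.66, adjusted p = 0.138).

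DNA methylation genes had 2 of 12 called higher and 2 lower (33.3%, against 9.8% of all genes), with differences down to -1.07, with Dnmt3a at 0.82 and Tet1 at -0.94, and Dnmt3b was not called (0.38, adjusted p = 0.392). Polycomb genes had 1 of 22 called higher and 2 lower (13.6%), with Bmi1 at 1.39, Eed at -1.03 and Ezh2 at -0.79. The calls of Tet1 and Ezh2 were lost with any of the 4 arrays left out (adjusted p up to 0.217 and 0.294), and those of Dnmt3a, Bmi1 and Eed in 3 of the 4 fits. Hypoxia-response genes had 3 of 15 called higher and 1 lower, led by Adm, the peptide adrenomedullin, which rose by 1.63 (adjusted p = 0.00111) and whose call held in the 4 fits. The other calls were P4ha2 (1.13), Egln1 (0.81) and Egln3 (-1.10), lost in 2, 3 and 3 of those fits (adjusted p up to 0.339, 0.398 and 0.408). The count of 3 rises was 1 without CB replicate 2, without ES replicate 2, with median centring and with the median of exon-level probe sets.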
